A study of Mus musculus with 6 samples.

Results

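Adipocyte genes were read in whole lung of mice with a smooth muscle BMPR2 mutation and of their controls. The set held 10 genes. Adipoq, Cfd, Plin1, Retn, Cidec, Car3 and Apmap are called fat-restricted here, and lung cells also express Fabp4, Lpl and Pparg. The name fat-restricted is loose for Car3 and Apmap, which other tissues also make, so medians over that group are not a reading of fat alone. Of the 10 genes, 8 had at least 1 probe set (a group of probes that reads 1 transcript) carrying that single symbol. They had 16 probe sets among the 45101 on the array. For Cfd, which encodes the protease adipsin, and Plin1, which encodes the lipid droplet coat protein perilipin 1, no probe set carries that symbol in the platform annotation used here, and they were not analysed here. The genes were chosen by gene symbol with earlier results of these same arrays known, among them group differences of adipocyte markers, so their differences between groups are given as a description with no test.

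White adipocytes store fatty acids as triglyceride in a single large droplet and secrete hormones, the adipokines, into blood. Lipoprotein lipase frees fatty acids from circulating particles at the capillary wall, fatty acid binding proteins carry them inside the cell, and the nuclear receptor PPAR gamma switches on much of this programme. In the lung, alveolar macrophages use PPAR gamma and FABP4, capillary endothelium makes FABP4, and fat itself lies outside the organ, around the airways' root, the large vessels and the heart.

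Each of 6 Affymetrix genome-wide mouse arrays held RNA from the flushed right lung of 1 FVB/N mouse, with 2 mice in each of 3 groups. Control mice carried the SM22-rtTA transgene alone, a transactivator under the promoter of the smooth muscle gene Tagln. R899X mice were heterozygous for SM22-rtTA and for TetO7-BMPR2-R899X, which encodes a truncated receptor for bone morphogenetic proteins, and they were divided by right ventricular systolic pressure (RVSP) at death into near normal and substantially elevated. Every mouse, control mice included, received doxycycline for 9 weeks starting at 4 weeks of age and was 13 weeks old at death. All were female according to the series description, and the individual label of control 1 does not repeat it. Values below are deposited intensities, replicate numbers only name mice, and each group mean has n = 2.

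The arrays had median intensities between 127.6 and 140.8. The 3'/5' intensity ratio of the beta-actin control probe sets was 1.89 in control 1 and 1.64 in R899X normal RVSP 1, against 1.27 to 1.45 on the other 4 arrays. That of Gapdh was 0.973 and 0.70 in these mice and 0.721 to 1.03 on the others. Lung identity was plain on all arrays: Sftpc, the surfactant protein of alveolar type 2 cells, lay between 26211.5 and 40876.4. Of the defining genes of fat, Lep, the adipokine leptin, lay between 1.68 and 19.0, and Ucp1, the uncoupling protein of brown fat, between 3.70 and 13.9. Both stayed below 74.9, the intensity under which the lowest 40% of probe sets fell by mean over all arrays and were left out of the tests. In limma, 0 of 27022 probe sets passed an adjusted p of 0.05 in any of 4 comparisons (0% called in each), while 1174, 1527, 707 and 1601 had an unadjusted p under 0.05 in turn for normal RVSP against control, for high RVSP against control, for high against normal RVSP, and for the 4 R899X mice together against control. By chance, 1351 would be expected.

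Adipoq encodes adiponectin, the most abundant adipokine of white fat. Its only probe set read 19.6 and 54.4 in control mice, 46.3 and 303.1 with normal RVSP, and 149.8 and 77.6 with high RVSP. R899X normal RVSP 2 was highest, 15.5-fold above control 1, and the other R899X normal RVSP mouse lay between the controls. Both controls and R899X normal RVSP 1 lay under the 74.9 of the filter, so this fold and the differences from control rest partly on dim signal. The high RVSP mice both lay above both controls, while the normal RVSP mice overlapped the controls and the high RVSP mice. The log2 difference from control was 1.49 ± 0.72 (standard error from limma, as for all differences below) with normal RVSP and 1.32 ± 0.72 with high RVSP. Leaving out R899X normal RVSP 2 brought the former to 0.32, and leaving out R899X normal RVSP 1 raised it to 2.67. High against normal RVSP was -0.18 ± 0.72, and -1.36 without R899X normal RVSP 1, and its sign turned without R899X normal RVSP 2. High RVSP against control was 0.82 without control 1. In bulk tissue, fewer cells of a type and less RNA per cell cannot be told apart.

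**Figure D1:**
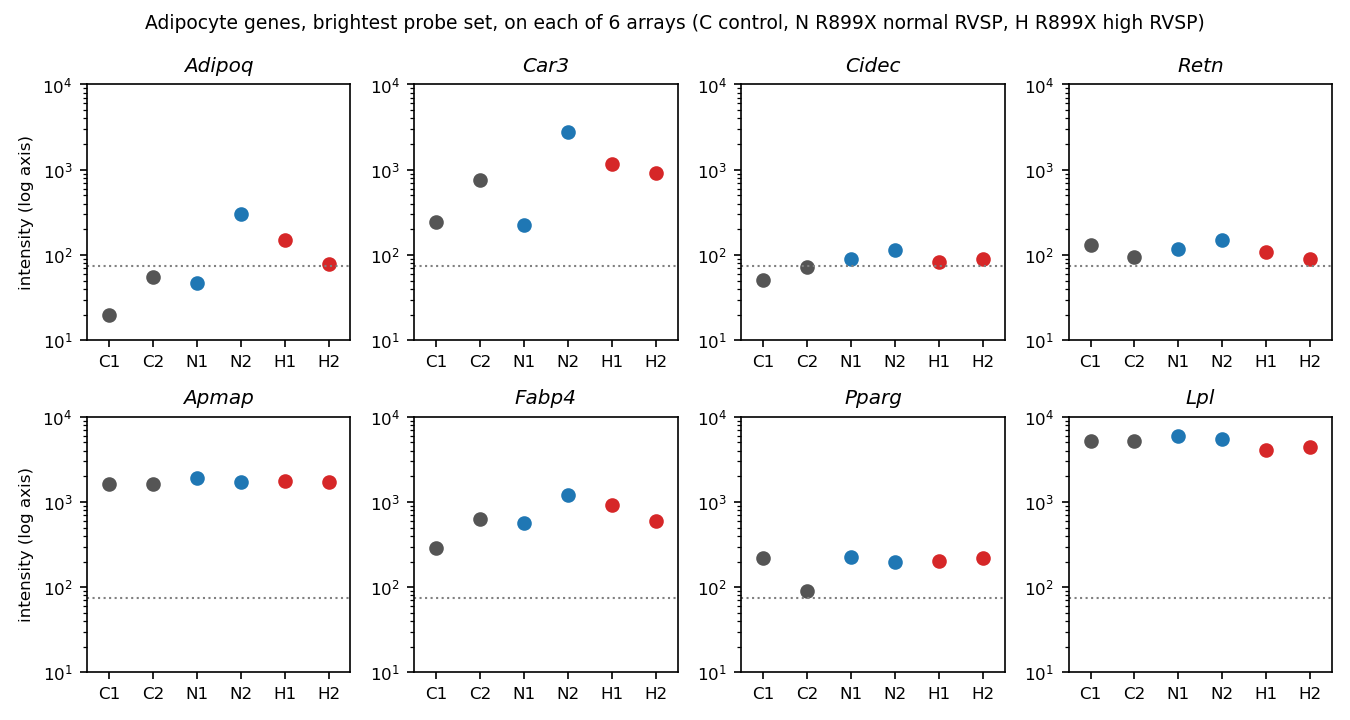
Intensity (log axis) of the brightest probe set of each of 8 adipocyte genes on the 6 arrays, 1 point per mouse; the dotted line marks the filter on low values at 74.9. Adipoq, Car3 and Fabp4 peak in R899X normal RVSP 2 and are low in control 1, while Apmap and Lpl stay within 1.19-fold and 1.47-fold over all arrays.

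Retn encodes resistin, an adipokine named for its effect on insulin action in mice. It read 130.3 and 94.3 in the controls, 117.4 and 148.5 with normal RVSP, and 109.3 and 88.7 with high RVSP. Its highest array was again R899X normal RVSP 2, but its second highest was control 1, the array with the lowest Adipoq. Retn spanned 1.67-fold in all, and its log2 differences from control were 0.22 ± 0.29 with normal RVSP and -0.15 ± 0.29 with high RVSP. The 2 adipokines therefore ranked the mice differently, with a Pearson r of 0.29 over 6 arrays on the log2 scale (Spearman's rho 0.03) and -0.51 without R899X normal RVSP 2.

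The promoters of these adipokines, from 250 bases before to 50 bases after the start of transcription, are shown because their levels did not move together across the mice. The sequences are RefSeq's on mouse assembly GRCm38.p6, for Adipoq chr16:23146286-23146585 on the plus strand and for Retn chr8:3655520-3655819 on the plus strand. Capitals mark matches on either strand to CCAAT, the CCAAT box, to TTGCNNAA, a form of the C/EBP site, to AGGTCA, the core site of nuclear receptors, or to TATAAA.
Adipoq: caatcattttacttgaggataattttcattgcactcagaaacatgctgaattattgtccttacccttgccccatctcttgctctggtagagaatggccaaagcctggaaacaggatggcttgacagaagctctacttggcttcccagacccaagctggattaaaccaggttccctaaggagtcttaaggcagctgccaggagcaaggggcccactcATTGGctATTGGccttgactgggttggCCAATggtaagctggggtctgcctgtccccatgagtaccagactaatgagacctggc
Retn: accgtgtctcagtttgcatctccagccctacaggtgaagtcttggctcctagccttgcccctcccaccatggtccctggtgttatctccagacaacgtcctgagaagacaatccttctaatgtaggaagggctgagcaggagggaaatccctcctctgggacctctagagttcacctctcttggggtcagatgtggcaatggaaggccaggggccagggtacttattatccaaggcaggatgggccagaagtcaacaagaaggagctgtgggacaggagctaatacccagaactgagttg
The Adipoq window held CCAAT 3 times, beginning 34, 27 and 7 bases before the start, and no match to the others; the Retn window held none of these motifs. At least 1 CCAAT was present in 37.4% of 32851 promoter windows, and 3 or more in 3.37%. TTGCNNAA was present in 10.8%, AGGTCA in 16.3% and TATAAA in 13.6%. The tandem nuclear receptor motif DR1, found in 0.381% of windows, matched in no promoter entry of the set. Promoter entries were matched for 7 of the 10 genes, not for Fabp4, Lpl or Car3. These matches describe the letters of the windows only.

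Cidec encodes a protein of the lipid droplet surface that lets droplets fuse. It read 51.2 and 71.9 in the controls, 90.8 and 113.4 with normal RVSP, and 83.7 and 89.5 with high RVSP. All 4 R899X mice lay above both controls, and both high RVSP mice lay below both normal RVSP mice. The log2 differences from control were 0.61 ± 0.30 with normal RVSP and 0.42 ± 0.30 with high RVSP, the latter 0.22 without control 1. Both control values lay under the 74.9 of the filter, so the difference rests on dim signal.

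Car3, carbonic anhydrase 3, is abundant in white fat and is also made by skeletal muscle and liver. Its brightest probe set had 244.2 and 751.7 in the controls, 224.1 and 2773.3 with normal RVSP, and 1179.7 and 921.1 with high RVSP. The normal RVSP mice thus held both the highest and the lowest value, 12.4-fold apart, and the high RVSP mice lay above both controls. A second probe set read 53.2 and 219.8, then 122.0 and 721.0, then 382.9 and 209.9 in the same order of mice, and for it the high RVSP mice overlapped the controls. The brightest probe set differed from control by 0.87 ± 0.98 with normal RVSP and 1.24 ± 0.98 with high RVSP on the log2 scale. The first of these was -0.90 without R899X normal RVSP 2 and 2.64 without R899X normal RVSP 1. The second was 0.46 without control 1 and 2.02 without control 2. The remaining Car3 probe sets stayed at or below 77.4 and did not pass the filter.

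Apmap encodes an adipocyte membrane protein that many other tissues express as well. Its brightest probe set read 1627.2 and 1624.6 in the controls, 1932.3 and 1712.4 with normal RVSP, and 1753.1 and 1725.7 with high RVSP. All R899X mice lay above the controls, yet the whole range was 1.19-fold and the log2 differences were 0.16 ± 0.15 and 0.10 ± 0.15. The other probe set of the gene read 107.3 and 111.7 in the controls, 293.0 and 267.1 with normal RVSP, and 67.2 and 19.9 with high RVSP. On it the normal RVSP mice lay above the controls and the high RVSP mice below them, with log2 differences of 1.24 ± 0.39 and -1.20 ± 0.39. The probe sets of Apmap thus disagreed in the direction of high RVSP against control, and across the arrays their log2 values had a Pearson r of 0.35 (n = 6).

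Among the genes that lung cells also express, Fabp4, the fatty acid binding protein of adipocytes, macrophages and capillary endothelium, was the one that followed Adipoq. Its brightest probe set read 285.8 and 639.6 in the controls, 564.2 and 1194.1 with normal RVSP, and 921.2 and 594.9 with high RVSP. The groups overlapped in every comparison, and the highest array was 4.18-fold above the lowest. The log2 differences from control were 0.91 ± 0.45 with normal RVSP and 0.77 ± 0.45 with high RVSP. Without control 1 these were 0.35 and 0.21, and without R899X normal RVSP 2 the former was 0.38. A second read 233.6 and 322.9 in control mice, 330.7 and 867.0 with normal RVSP, and 760.4 and 401.4 with high RVSP. For that probe set all 4 R899X mice lay above both controls. The remaining probe sets of Fabp4 lay between 26.4 and 90.7 and did not show this order; the one that passed the filter ranged from 66.9 to 90.7 with its highest value in control 1, and its r with Adipoq was -0.82.

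**Figure D2:**
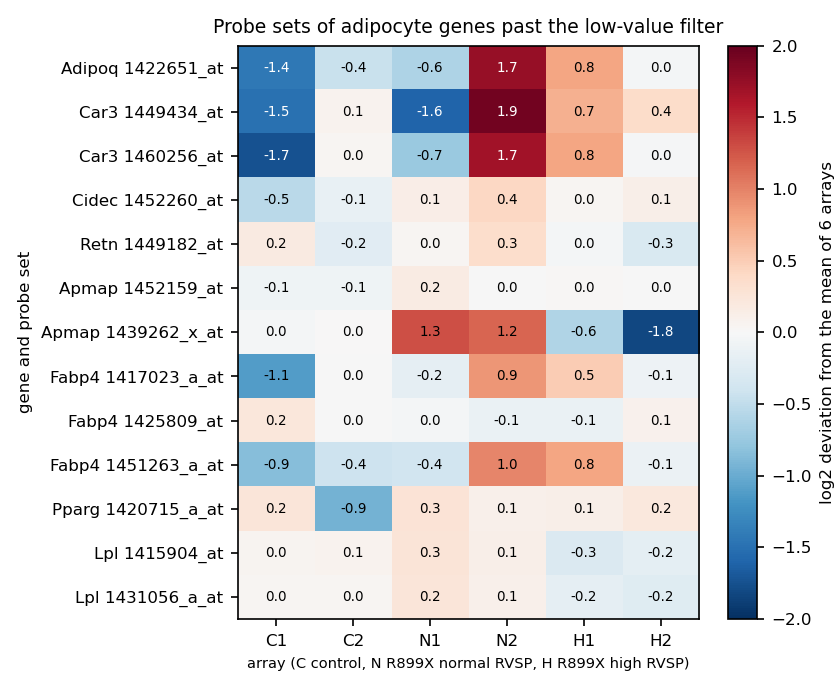
Deviation of log2(intensity + 16) from the mean of the 6 arrays for the 13 probe sets past the filter on low values (rows, gene and probe set) in each array (columns). The Adipoq probe set, 2 of Car3 and 2 of Fabp4 share a pattern with control 1 low and R899X normal RVSP 2 high, and the Lpl probe sets are lowest in the high RVSP arrays.

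Over the 6 arrays, the log2 values of Adipoq had a Pearson r of 0.92 with the brightest Car3 probe set and 0.98 with the second, and of 0.95 and 0.98 with the 2 bright Fabp4 probe sets. Spearman's rho was 0.94 for each of these. The values of r were 0.84, 0.96, 0.94 and 0.97 without R899X normal RVSP 2, and 0.76, 0.91, 0.91 and 0.98 without the 2 arrays farthest from the Adipoq median. With Cidec r was 0.83, and 0.07 without those 2 arrays, so that relation rests on them. With Apmap it was 0.11, with Lpl -0.25 and with Pparg 0.06, each for the brightest probe set. That of Lpl was -0.73 without R899X normal RVSP 2 and -0.91 without the 2 farthest arrays. The points share arrays, scaling and RNA quality, and no p is given.

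**Figure D3:**
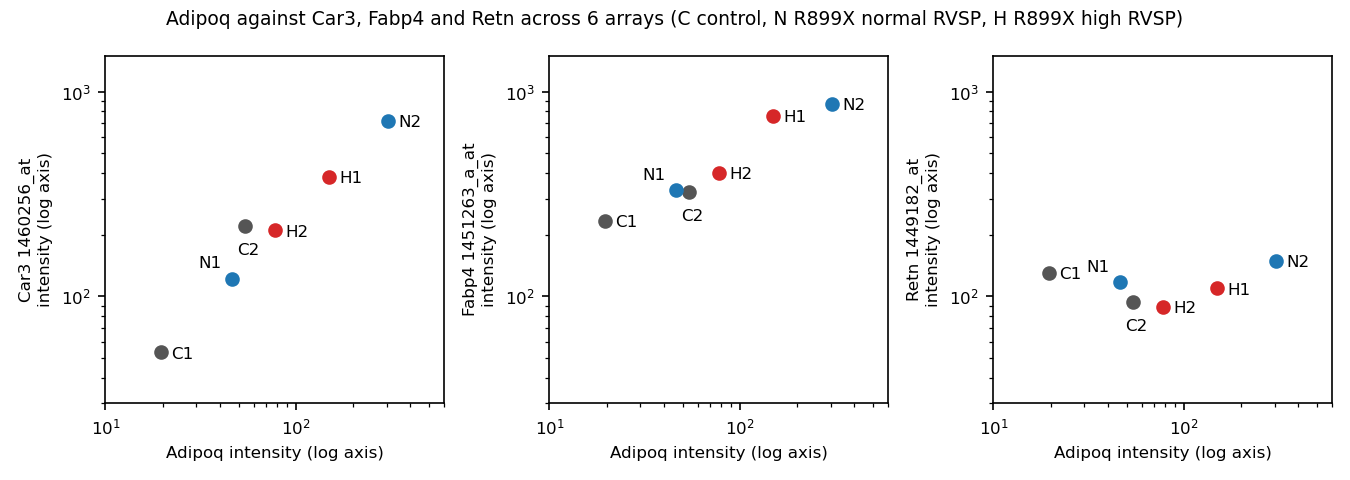
Adipoq intensity (x, log axis) against 1 probe set each of Car3, Fabp4 and Retn (y, log axis) on the 6 arrays, 1 point per mouse coloured by group. Car3 and Fabp4 are shown by their second probe sets, whose r with Adipoq was 0.98 each, against 0.92 and 0.95 on the brightest. On the probe sets shown, they follow Adipoq from control 1 to R899X normal RVSP 2, whereas Retn stays between 88.7 and 148.5. On the brightest Car3 probe set the lowest array was instead R899X normal RVSP 1.

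The order of the mice by Adipoq, from high to low, was R899X normal RVSP 2, R899X high RVSP 1, R899X high RVSP 2, control 2, R899X normal RVSP 1 and control 1. R899X normal RVSP 1 and control 1 are also the arrays with the highest beta-actin 3'/5' ratios, while for Gapdh R899X normal RVSP 1 had the lowest ratio and control 2 the highest. The part of RNA quality in the order was not tested. Leaving out control 1 and R899X normal RVSP 1 was an alternative added after seeing the data. The median over the 5 measured fat-restricted genes for high against normal RVSP was then -0.52 instead of -0.18. Control 1 does not enter that comparison, and leaving out R899X normal RVSP 1 alone gave the same -0.52. Against control the median was 0.58 instead of 0.61 with normal RVSP, 0.22 instead of 0.42 with high RVSP, and 0.39 instead of 0.51 for all R899X. Likeness to Adipoq was also looked up over 2813 other named genes whose probe sets passed the filter and spanned at least 1 on log2. The 10 closest were Msi2, an RNA binding protein (r = 0.972), Efhd1, a mitochondrial calcium binding protein (0.968), Pfn2, a profilin that binds actin (0.948), Cab39 (0.946), Slmap (0.940), Cdk12, a transcriptional kinase (0.937), Lef1, a Wnt pathway transcription factor (0.931), Kif5b, a kinesin motor (0.931), Cp, the copper protein ceruloplasmin (0.924), and Chd4, a chromatin remodeller (0.922). Msi2, for example, read 100.9 and 152.8 in the controls, 113.0 and 279.5 with normal RVSP, and 232.2 and 173.7 with high RVSP. Of the list of other white adipocyte genes, Thrsp, Dgat2, Lipe and Plin4 were among the genes compared, with r of 0.71, 0.69, 0.66 and -0.53. Their ranks were 464, 503, 592 and 2539 of the 2813 genes, and 0 of the list were among the 100 most alike. The value of Dgat2 came from its dimmer probe set.

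Pparg encodes PPAR gamma, the receptor that drives fat cell differentiation and the maturation of alveolar macrophages. Its probe set read 222.8 and 89.3 in the controls, 228.5 and 200.0 with normal RVSP, and 203.2 and 218.2 with high RVSP. Control 2 alone was low, and the other 5 arrays lay between 200.0 and 228.5. The log2 differences from control, 0.53 ± 0.37 with normal RVSP and 0.51 ± 0.37 with high RVSP, were -0.06 and -0.08 without control 2, so that array decides them. Without control 1 they were 1.13 and 1.10. The probe set does not show which start of Pparg was in use.

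Lpl encodes lipoprotein lipase, made in the lung by alveolar macrophages and other cells and in fat by adipocytes. It read 5169.9 and 5234.3 in the controls, 5970.9 and 5421.0 with normal RVSP, and 4075.7 and 4372.9 with high RVSP. A second probe set read 1123.8 and 1121.8, then 1298.7 and 1174.7, then 966.4 and 917.9 in the same order. On both probe sets the normal RVSP mice lay above both controls and the high RVSP mice below both. As a percentage of the control mean of its probe set, Lpl was 78.3% and 84.1% in the high RVSP mice on the brightest probe set and 86.1% and 81.8% on the second. The log2 differences of the brightest were 0.13 ± 0.14 for normal RVSP against control, -0.30 ± 0.14 for high RVSP against control and -0.43 ± 0.14 for high against normal RVSP. With 1 array left out in turn, the difference of high against normal RVSP ranged from -0.50 to -0.36. Lpl moved least between mice of a group among the genes that lung cells also express, with a pooled within-group SD of 0.07 on log2, against 0.68 for Fabp4 and 0.49 for Pparg.

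**Figure D4:**
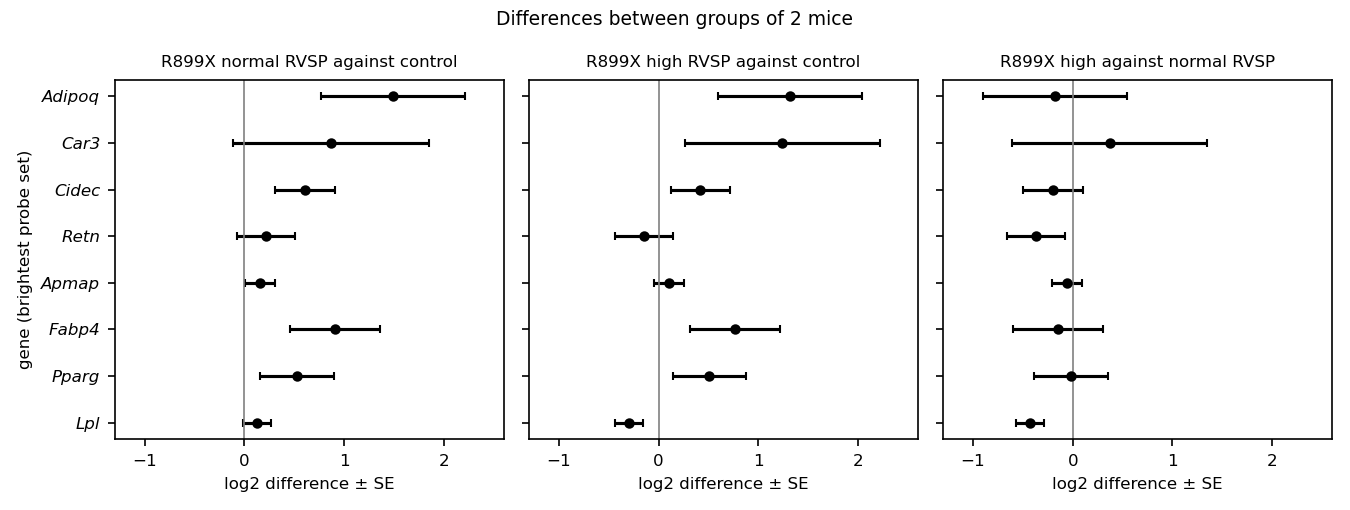
Log2 differences (points) with standard errors (bars) of the brightest probe set of each gene for the 3 comparisons between groups of 2 mice. Adipoq and Car3 have the widest errors, up to 0.98, and Lpl is the gene with narrow errors whose difference of high against normal RVSP is -0.43.

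Over the set, the 2 sides of a comparison did not overlap for the brightest probe set of 3 of 8 genes in normal RVSP against control, all higher (Cidec, Apmap and Lpl), where 15.0% of 12557 tested genes were higher in that way and 12.0% lower. With high RVSP against control 4 were higher (Adipoq, Cidec, Car3 and Apmap) and 1 lower (Lpl), where 14.3% and 18.3% of all genes were. For high against normal RVSP 0 were higher and 3 lower (Retn, Cidec and Lpl), against 11.5% and 19.8%. For all R899X mice against control 2 were higher (Cidec and Apmap) and 0 lower, against 6.24% in each direction. Since these contrasts chose the genes, nothing is read from the counts. The median log2 difference of the 5 measured fat-restricted genes was 0.61, 0.42, -0.18 and 0.51 in these 4 comparisons, and that of the 3 genes that lung cells also express was 0.53, 0.51, -0.15 and 0.52. Over all tested genes it was 0.02, -0.02, -0.03 and 0.00. In the comparisons with control, the middle gene was Cidec in the fat-restricted set and Pparg in the other. The single genes spread widely around these medians. For high RVSP against control they ran from -0.15 (Retn) to 1.32 (Adipoq) and from -0.30 (Lpl) to 0.77 (Fabp4). The comparisons share control or R899X normal RVSP mice. The fat-restricted median for normal RVSP against control was 0.25 without R899X normal RVSP 2, and for high RVSP against control 0.22 without control 1. For all R899X against control it was 0.28 without control 1 and 0.17 without R899X normal RVSP 2, and for high against normal RVSP -0.52 without R899X normal RVSP 1, -0.06 without R899X normal RVSP 2 and -0.05 without the second high RVSP mouse. The median of the genes that lung cells also express was 0.14, -0.08 and -0.07 without control 2 for normal RVSP, high RVSP and all R899X against control, and 0.35, 0.21 and 0.28 without control 1. For high against normal RVSP it was -0.36 without R899X normal RVSP 1, and leaving out the first or the second high RVSP mouse gave -0.38 or -0.07.

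Other genes of white fat were taken from a list of 18 symbols, of which 17 had a probe set and 12 passed the filter. In limma 0 of these 12 passed in any comparison. By the brightest probe sets, 1 had an unadjusted p under 0.05 in normal RVSP against control and 1 in high against normal RVSP. In the other comparisons the count was 0. Both times the gene was Thrsp, a lipogenic nuclear protein. It read 261.1 and 318.6 in the controls, 354.3 and 673.0 with normal RVSP, and 270.9 and 292.4 with high RVSP. Its log2 difference from control was 0.73 ± 0.30 with normal RVSP (adjusted p = 0.987 in limma), and R899X normal RVSP 2 was the highest array, as for Adipoq. Its other probe sets did not share this: one read 258.2 in R899X high RVSP 1, its highest array, and a dim one was lower in all R899X mice than in the controls. Dgat2 had an unadjusted p under 0.05 on its dimmer probe set, in high RVSP and all R899X against control. That probe set read 119.3 and 183.2 in the controls and 228.9 to 397.8 in the R899X mice. For all R899X against control it differed by 0.79 ± 0.27 (adjusted p = 0.832 in limma), the brightest by 0.22 ± 0.20 with overlap. The brightest of the list were Pnpla2, the first lipase of triglyceride breakdown, between 1315.2 and 1851.6, Cebpa, a fat cell transcription factor, between 1045.2 and 1682.5, and Agpat2, an enzyme of lipid assembly, between 433.6 and 649.5. Lipe, hormone-sensitive lipase, read 400.6 and 466.5 in the controls, 227.3 and 626.1 with normal RVSP, and 641.0 and 533.5 with high RVSP. Lep lay below both controls on all R899X arrays, within dim signal. Aqp7, the glycerol channel of adipocytes, did so on its brightest probe set, which did not exceed 23.0, but on its other probe set R899X normal RVSP 1 was highest at 25.5. The median log2 difference of the list was 0.08 for normal RVSP against control and -0.03 for high RVSP against control. In the brown fat list, 5 of 10 genes with a probe set passed the filter and 0 passed the test. Prdm16, a regulator of brown fat identity that other tissues also express, read 1192.9 and 1087.1 in the controls and 890.7 to 987.6 in the R899X mice on its brightest probe set. Another of its probe sets past the filter went the other way, with 63.1 and 84.2 in the controls and 101.1 to 127.6 in the R899X mice (log2 difference 0.51 ± 0.24, adjusted p = 0.832 in limma), so the direction of Prdm16 depends on the probe set. Cox7a1, a respiratory chain subunit of brown fat and heart, differed by -0.82 ± 0.26 in high RVSP against control (adjusted p = 0.857).

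Genes of fatty acid uptake and storage in lung were bright. Cd36, the fatty acid translocase of capillary endothelium and macrophages, lay between 12180.1 and 18062.9, Fabp5, a second fatty acid binding protein, between 10936.5 and 17797.7, and Gpihbp1, the endothelial anchor of lipoprotein lipase, between 5001.2 and 7353.6. Of 8 genes of this list with a probe set, 0 passed in limma. By the brightest probe sets, 0 had an unadjusted p under 0.05 in any comparison. The median log2 difference was 0.05 for normal RVSP against control and 0.00 for high RVSP against control. Unadjusted p fell under 0.05 on dimmer probe sets of Fabp5 and Vldlr. For Fabp5 the difference was 0.50 ± 0.16 for all R899X against control (adjusted p = 0.832 in limma). On the brightest Fabp5 probe set it was 0.03 ± 0.20, with overlap. For Vldlr it was -0.56 ± 0.19 for high RVSP against control (adjusted p = 0.857 in limma), while other Vldlr probe sets were higher, by up to 0.48 ± 0.36. Plin2, the lipid droplet coat protein of non-adipocyte cells, spanned only 3132.6 to 3860.3. Of the 7 fatty acid synthesis genes, 0 passed, and 2 had an unadjusted p under 0.05 in high RVSP against control. Acaca, acetyl-CoA carboxylase, read 731.0 and 612.1 in the controls, 761.5 and 692.3 with normal RVSP, and 505.7 and 484.0 with high RVSP. Its log2 difference from control was -0.42 ± 0.18 with high RVSP (adjusted p = 0.857 in limma). Me1, malic enzyme, lay higher in all R899X mice, with 638.0 and 601.9 in the controls, 908.0 and 735.7 with normal RVSP, and 872.4 and 843.5 with high RVSP. Its difference for all R899X against control was 0.42 ± 0.15 (adjusted p = 0.832 in limma), and on its second probe set, 0.32 ± 0.19, the groups overlapped. Fasn, fatty acid synthase, was also below both other groups in the high RVSP mice, at 75.2% and 94.6% of the control mean. For high against normal RVSP, 4 of these 7 genes were lower with no overlap (Acaca, Fasn, Srebf1 and Scd1, by their brightest probe sets) and 0 higher, against 19.8% and 11.5% of all tested genes, and 5 of 7 had a negative difference with a list median of -0.27. A second Scd1 probe set instead read 849.9 and 760.7 in the controls, 1130.2 and 1383.2 with normal RVSP, and 862.0 and 1822.2 with high RVSP.

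**Figure D5:**
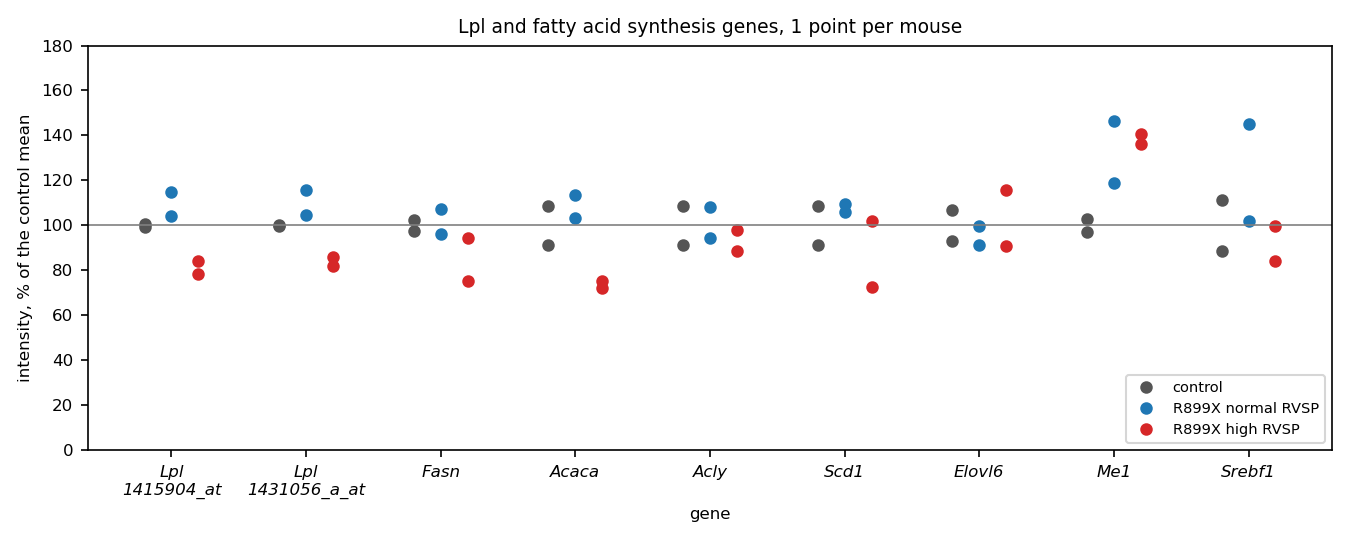
Intensity as a percentage of the mean of the 2 controls for both Lpl probe sets and 7 fatty acid synthesis genes, 1 point per mouse. Lpl and Acaca lie below the controls in both high RVSP mice, and Me1 lies above them in all 4 R899X mice.

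Markers of cells that also express these genes were read beside them. The summed intensity of 9 alveolar macrophage markers was 19526.4 and 17715.0 in the controls, 15141.2 and 15948.6 with normal RVSP, and 12383.2 and 21339.7 with high RVSP. Chil3, a chitinase-like protein, made up much of each sum, with 12820.7 in control 1 and 4379.2 and 10839.4 in the high RVSP mice. The median deviation of these markers from their own means was -0.03 and 0.32 on log2 with high RVSP, against -0.11 to -0.01 on the other 4 arrays. Among these markers Krt79, a keratin of alveolar macrophages, read 562.1 and 557.6 in the controls, 645.2 and 650.1 with normal RVSP, and 704.9 and 1286.8 with high RVSP. The sum of 8 capillary endothelial markers lay between 49211.8 in control 1 and 55513.4 in R899X normal RVSP 1. Pecam1 was higher in all R899X mice than in the controls, 1 of these 8 markers, where 6.24% of all tested genes were. For all R899X against control, 5 of the 8 were higher and 3 lower, with a list median of 0.02. Sums of 5 alveolar type 2 markers ranged from 84937.7 to 112009.5. Abca3 was lower in all R899X mice on its brightest and its dimmest probe set and overlapped on the remaining one. No marker of these lists was at 0. Their part in the levels of Fabp4, Lpl and Pparg was not tested.

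Markers of tissue that borders the lung were read in the same way. The sum of 8 cardiac muscle markers was highest in R899X normal RVSP 1 at 31059.9 and lowest in R899X high RVSP 2 at 10358.6. Mb, myoglobin, read 636.0 and 662.1 in the controls, 1157.8 and 1026.7 with normal RVSP and 440.1 and 316.5 with high RVSP. This is the order of groups seen for Lpl. For high against normal RVSP, 8 of the 8 cardiac markers were lower and 0 higher, with a list median of -0.98. Of the 7 past the filter, 6 were lower with no overlap, where 19.8% of all tested genes were. The sum of 6 skeletal muscle markers lay between 584.4 and 991.1 and was also highest in R899X normal RVSP 1. Of these markers 4 passed the filter, while Myh4 did not exceed 30.9 and Tnnt3 did not exceed 71.0 on their brightest probe sets. Ckm, muscle creatine kinase, made up 549.6 of the sum in that mouse. It read 299.8 and 325.7 in the controls, 549.6 and 436.7 with normal RVSP, and 292.2 and 162.2 with high RVSP. Acta1 of the same list went the other way. It read 101.8 and 120.2 in the controls, 110.2 and 97.0 with normal RVSP, and 139.4 and 173.7 with high RVSP. For high against normal RVSP, 2 of the 6 markers were higher and 4 lower. The sum of 3 liver markers was 3755.3 in control 2 against 62.1 to 698.8 elsewhere, with Alb, albumin, at 2464.3 there. Apoa1, a liver apolipoprotein, read 295.0 there and at most 72.4 elsewhere on its brightest probe set. Mesothelial markers (5 genes) summed to 2076.5 to 3506.0. Wt1 alone of them was higher in all R899X mice than in both controls. For all R899X against control, 3 of the 5 had a positive difference and 2 a negative one. Thymus and T cell markers (6 genes) summed to 711.5 and 675.9 in the controls, 760.4 and 854.9 with normal RVSP, and 845.4 and 826.3 with high RVSP. The 3 arrays with the highest sums were those with the highest Adipoq, in the same order. Cd3e, a subunit of the T cell receptor complex, made up much of each sum. It had the same 3 on top with 543.9, 508.9 and 466.3. Cd8b1 was instead highest in R899X normal RVSP 1, at 235.5. Ptcra, Dntt and Rag1 stayed at or below 68.2 on their brightest probe sets and did not pass the filter. Among these markers Cd8b1 was higher and the dim Ptcra lower in all R899X mice. Mammary and skin epithelium markers (5 genes) summed to 531.8 to 706.5, and the milk protein gene Csn2 read 6.61 and 5.96 in the controls and 9.65 to 51.4 in the R899X mice on its brightest probe set, below the filter, while its other probe set overlapped. The part of any of these tissues in the levels of the adipocyte genes was not tested.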

How the data were processed

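The authors deposited 1 intensity per probe set and array on a linear scale, for 45101 probe sets; the deposited intensities have an equal trimmed mean of 500.0 on every array, made by an algorithm not given in the sources used here. Per the labels' protocols, mice received heparin, the vessels of the right lung were rinsed with saline, and RNA came from silica columns. Values were used as log2(intensity + 16), which understates differences of dim probe sets, with no further normalization, since array medians spanned 0.127. The 64 control probe sets and 18015 others, the lowest 40% by mean, were left out of the tests. Group means were fitted to 27022 probe sets on 6 arrays with limma 3.58.1 in R 4.3.3 (intensity trend, two-sided, Benjamini-Hochberg at 0.05), and the procedure was tested on simulated data. Nothing in the labels says that mice shared a litter or batch, and array numbers limit the precision; an exact permutation test of 2 against 2 cannot go below p = 0.333. A gene was represented by its probe set of highest mean, which gave 12557 genes. Symbols come from the platform annotation, which names 1 symbol for 34945 probe sets and several for 932; no genome build goes with the probes, so no probe coordinates are given. The members and lists were chosen with earlier results of these data known. Of other lists, the text names up to 4 of the brightest genes. It also names those whose arrays did not overlap between all R899X and control, or between any 2 groups by at least 1 on log2. Single genes beyond this rule (Thrsp, Acaca, Vldlr, Dgat2 and Plin4) were named after their values were seen. The alternatives were other pseudocounts, normalizations, filters and fits, and leaving out each array.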

Additional observations from a re-analysis of the deposited data

Results flagged for a closer look

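On the probe sets of Lpl the R899X normal RVSP mice all lay above the controls and the R899X high RVSP mice all below, with a log2 difference of high against normal RVSP of -0.43 on the brightest and -0.39 on the second. The same held for the dimmer probe set of Apmap, with -2.44, whereas its brightest probe set gave -0.06. The difference between the effects was not tested for Lpl and Apmap, because they were chosen with results of these contrasts known. This order was looked for only in the adipocyte genes and the lists of fat and fatty acid genes. Its share over all tested genes was not counted. The muscle markers Mb and Ckm, outside that search, had the same order on their brightest probe sets.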

How the results depend on the processing

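Fits with pseudocounts of 1 or 64, quantile or median normalization, no filter or a filter on the lower 60%, an ordinary linear model, or limma without the intensity trend all gave 0 probe sets past the threshold in the 4 comparisons; with only the groups compared, 1 passed for R899X high RVSP against control, and for all R899X against control that fit is the same and was not run. Leaving out 1 array gave 0 to 4, 0 to 2, 0 to 43 and 0 to 6 for normal RVSP against control, high RVSP against control, high against normal RVSP, and the R899X mice together against control (43 without R899X normal RVSP 2); the group left with 1 mouse is then assumed to vary like the others. The fat-restricted median ranged from 0.25 to 0.81, 0.22 to 0.61, -0.52 to -0.05 and 0.17 to 0.71 in these fits, and the median of the genes that lung cells also express from 0.14 to 0.53, -0.08 to 0.51, -0.38 to -0.07 and -0.07 to 0.57. A pseudocount of 64 gave 0.41, 0.39 and 0.40 for the latter in normal RVSP, high RVSP and all R899X against control, and the mean over all probe sets of a gene gave 0.40 for high RVSP against control. Without control 1 and R899X normal RVSP 1 together, chosen after seeing the data, it was 0.88, 0.21 and -0.36 in the first 3 comparisons, and the fat-restricted median was -0.52 for high against normal RVSP; the cause was not tested. No paired analysis was possible because the labels give no replicate numbers that pair mice. Dim signal limits Adipoq, Cidec and Retn, which lay below or near the filter on several arrays.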
